A study of Mus musculus with 6 samples.

Results

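Psmg1, Psmg3 and Psmd5 encode chaperones that assemble the proteasome, and their transcripts were followed here in mouse metaphase II (MII) oocytes with and without the gene for the kinase MTOR. They were taken by gene name from a deposited table of 516 genes, in which 3 of 3 were found. The rows of that table had been picked by the submitters for a difference between these same libraries: in the authors' deposited table no absolute log2 fold is below 1.0006 and no p-value is above 0.0099. A difference between the genotypes in these genes is therefore in part a condition of being listed, and the values below describe it. The adjusted p-values below were computed over these picked genes, so they give no valid error rate for a call.

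In the Mtor CKO group (n = 3 libraries) Mtor was deleted with Zp3-Cre, a Cre recombinase driven by the promoter of a zona pellucida gene that is active in growing oocytes, so the somatic cells around the oocyte keep Mtor. The other group was labelled wild type (WT, n = 3 libraries), and the labels do not say whether its females carried floxed Mtor without Cre. All females were C57BL/6, received 5 IU PMSG at 22 days of age and 5 IU hCG 48 h later, and gave oocytes from the oviduct 14 h after hCG, at an age labelled day 24. Each library pooled 5 oocytes, and nothing in the labels ties a library to a mouse, so the p-values measure the spread between libraries, part of which may be technical.

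The proteasome is the protease that degrades ubiquitin-tagged proteins, and the MII egg depends on it to destroy cyclin B and securin at fertilization. Its core particle is a stack of rings, and its regulatory particle carries a ring of ATPases. Dedicated chaperones bring the subunits together and leave the finished complex. PSMG1 works as a pair with PSMG2 at the first ring of the core, PSMG3 works as a pair with PSMG4 at the same ring, and PSMD5 (also called S5b) holds ATPases of the regulatory particle until they join. In yeast and in mammalian cell lines, inhibition of TORC1 has been reported to raise assembly chaperones, and in mouse cells active mTORC1 has been reported to raise proteasome subunit genes through the transcription factor NFE2L1. The mature oocyte transcribes almost nothing, so its transcript levels reflect storage and decay of RNA made earlier.

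The 3 genes lie on different chromosomes, each on the minus strand (mm10 intervals of the table). Psmg1 (ENSMUSG00000022913) is at chr16:95979820-95990960, Psmg3 (ENSMUSG00000029551) at chr5:139823593-139826843 and Psmd5 (ENSMUSG00000026869) at chr2:34851510-34870939. In GENCODE M21, on the same assembly, the longest coding transcript has 7 exons and 1044 bases for Psmg1, 3 exons and 883 bases for Psmg3, and 10 exons and 4397 bases for Psmd5. They encode proteins of 289, 122 and 504 residues. No other annotated gene overlaps the Psmg1 and Psmd5 intervals. The Psmg3 interval is overlapped on the same strand by the protein-coding model Gm26938 (chr5:139807978-139826407), which shares 237 of the 883 exonic bases (26.8%) of that Psmg3 transcript, so fragments from those bases cannot be given to Psmg3 alone. Apart from Gm26938, no other gene had a transcript at least 90% identical over at least 100 bases to any of the 3.

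The promoters are shown because all 3 genes had lower mean levels in Mtor CKO and because proteasome genes are known to share promoter elements. That direction held for 76.4% of all rows by the authors' deposited table, and shared control of the 3 genes was not tested. Each run covers 250 bases before and 50 after the RefSeq start (GRCm38.p6, minus strand, 5′ to 3′). Capitals mark the ETS-family motif CCGGAAG in Psmg1 and Psmg3, and in Psmd5 the longest run that occurs more than once.
Psmg1, chr16:95990911-95991210: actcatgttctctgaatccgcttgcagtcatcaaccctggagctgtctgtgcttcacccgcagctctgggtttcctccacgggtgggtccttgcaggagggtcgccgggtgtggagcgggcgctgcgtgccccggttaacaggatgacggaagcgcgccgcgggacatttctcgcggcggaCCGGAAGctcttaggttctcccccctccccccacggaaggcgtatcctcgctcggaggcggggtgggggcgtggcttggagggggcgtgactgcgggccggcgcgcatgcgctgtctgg
Psmg3, chr5:139826845-139827144: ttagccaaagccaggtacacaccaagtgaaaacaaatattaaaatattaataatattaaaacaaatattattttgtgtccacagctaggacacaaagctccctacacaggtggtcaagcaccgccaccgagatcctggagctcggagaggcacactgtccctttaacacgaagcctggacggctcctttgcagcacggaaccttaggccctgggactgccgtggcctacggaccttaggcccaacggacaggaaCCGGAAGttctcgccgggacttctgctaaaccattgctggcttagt
Psmd5, chr2:34870913-34871212: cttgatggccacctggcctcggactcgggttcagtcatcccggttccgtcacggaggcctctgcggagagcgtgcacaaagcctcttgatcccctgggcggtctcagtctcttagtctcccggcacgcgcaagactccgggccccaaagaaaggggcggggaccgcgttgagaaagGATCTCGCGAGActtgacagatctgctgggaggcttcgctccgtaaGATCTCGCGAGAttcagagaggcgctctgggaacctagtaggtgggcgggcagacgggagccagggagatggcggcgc

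Of 4 motifs searched on both strands, CCGGAAG was in 2 of the 3 promoters, at bases 182 to 188 of the Psmg1 run and 255 to 261 of the Psmg3 run, and it is in 8.86% of 32851 mouse promoters of the same length and in 16.1% of the 434 that belong to genes of the table. The core of the antioxidant response element that NFE2L1 and NFE2L2 bind, TGACNNNGC, was in 0 of 3, and 12.4% of all promoters and 17.3% of those of table genes hold it. CCAAT was in 0 of 3 (37.4% of all promoters, 39.6% of those of table genes) and the E-box CACGTG in 0 of 3 (7.15% of all promoters, 13.4% of those of table genes). Matches of different motifs did not overlap. Of all promoters, 8.32% hold a run of 12 or more bases that occurs more than once. The Psmg3 promoter holds such a run of 13 bases, not in capitals, and 5.32% of promoters hold one as long. The Psmd5 promoter carries GATCTCGCGAGA at bases 177 to 188 and again at 223 to 234, a repeat picked out after the sequence was seen. The palindrome TCTCGCGAGA within it, known as the binding motif of the factor BANP, is in 153 of the 32851 promoters (0.466%), of which 11 hold it more than once, and in 5 of the 434 of table genes (1.15%). The Psmg1 and Psmd5 promoters were rich in CpG, with 30 and 26 CpG dinucleotides and a GC content of 67.7% and 63.7%, against a median of 7 and 52.7% over all promoters. The Psmg3 promoter had 12 CpG and a GC content below that median, at percentile 39.3 of all promoters. These are matches of letters, and no binding was measured.

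The 3′ ends are shown because stored oocyte messages are controlled there, through the polyadenylation hexamer and the U-rich cytoplasmic polyadenylation element (TTTTAT or TTTTAAT in DNA letters). The sites below are from the GENCODE M21 transcripts, 5′ to 3′. Capitals mark the last hexamer in the final 40 bases and any match of the cytoplasmic element.
Psmg1, chr16:95979936-95979965: tgttttgagagtAATAAAaattttaaaaat
Psmg3, chr5:139823610-139823639: ttTTTTATtaaaAATAAAtctaaagtactt

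Psmg1 has a short annotated 3′ UTR of 104 bases with 1 match of the cytoplasmic element. The match ends 24 bases before the hexamer and so lies outside the run shown. The deposited Psmg1 interval starts at base 95979820, while the annotated gene starts at 95979933. On the minus strand the deposited interval thus reaches past the 3′ end shown. Psmg3 has a 3′ UTR of 329 bases, and its 1 match ends 4 bases before the hexamer AATAAA. The other hexamer, ATTAAA, lies directly before AATAAA, overlaps the match and is not fully in capitals. The annotated 3′ UTR of Psmd5 is longer, at 2842 bases, with 4 matches and no hexamer AATAAA or ATTAAA in its last 40 bases. The deposited Psmd5 interval starts at base 34851510 and the annotated gene at 34849734. On the minus strand that interval stops short of the gene's 3′ side and may not hold all of this 3′ UTR. Over 20962 mouse genes, the median 3′ UTR had 937 bases, 73.0% had such a hexamer and 56.3% had at least 1 match of the cytoplasmic element. Long 3′ UTRs hold more matches by their length alone.

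All 3 chaperone transcripts were lower in Mtor CKO oocytes, at 43.6% to 46.3% of their WT means. Values are FPKM (fragment counts divided by transcript length and by the library's mapped fragments), as deposited by the authors. FPKM is a share of a library, so fewer copies per oocyte and more RNA of other kinds cannot be told apart. The labels give 5 oocytes for every library, and the RNA content per oocyte is not given. The libraries' read depth is unknown, and no counting error can be given.

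Psmg1, the chaperone of the core ring that pairs with PSMG2, was at 24.9, 45.8 and 36.6 FPKM in Mtor CKO libraries 1 to 3, against 76.6, 76.0 and 81.5 FPKM in WT libraries 1 to 3. All 3 Mtor CKO libraries lay below all 3 WT libraries, with the lowest WT value 1.66 times the highest Mtor CKO value. The Mtor CKO libraries averaged 35.8 ± 10.5 FPKM and the WT libraries 78.1 ± 3.02 FPKM (SD, n = 3 each), so Mtor CKO stood at 45.9% of WT. The WT libraries were close together, with a coefficient of variation of 3.87%, and the Mtor CKO libraries were further apart, at 29.3%. Psmg1 fell by limma, with a log2 difference (Mtor CKO minus WT) of -1.14 (SE 0.34, 95% interval -1.93 to -0.36, adjusted p = 0.0373). The difference stayed between -1.34 and -0.91 with any 1 library left out, but the call was lost without Mtor CKO replicate 1 (-0.91), Mtor CKO replicate 3 (-1.18), WT replicate 2 (-1.16) or WT replicate 3 (-1.11), with limma adjusted p from 0.0905 to 0.102.

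Psmd5, the chaperone of the ATPase ring, was at 25.3, 23.4 and 26.4 FPKM in Mtor CKO libraries 1 to 3 and at 35.2, 50.5 and 76.5 FPKM in WT libraries 1 to 3. Here too no Mtor CKO library reached a WT library, and the gap was narrower, with the lowest WT value 1.33 times the highest Mtor CKO value. The Mtor CKO libraries averaged 25.0 ± 1.53 FPKM and the WT libraries 54.1 ± 20.9 FPKM (SD, n = 3 each), or 46.3% of WT. The spread was the reverse of that of Psmg1: the coefficient of variation was 6.11% in Mtor CKO and 38.6% in WT. Psmd5 fell by limma, with a log2 difference of -1.01 (SE 0.37, 95% interval -1.86 to -0.17, adjusted p = 0.0417). Without WT replicate 3, the highest library, the log2 difference was -0.73 with an adjusted p of 0.145 by limma. The call was also lost without Mtor CKO replicate 1 (-1.02), Mtor CKO replicate 3 (-1.05) or WT replicate 2 (-1.03), with limma adjusted p from 0.0978 to 0.116.

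Psmg3, the partner of PSMG4, was the lowest of the 3 and the most uneven. It was at 3.71, 7.65 and 17.1 FPKM in Mtor CKO libraries 1 to 3, against 26.0, 16.5 and 22.8 FPKM in WT libraries 1 to 3. The groups overlapped, since Mtor CKO library 3 was above WT library 2. The Mtor CKO libraries averaged 9.48 ± 6.87 FPKM and the WT libraries 21.8 ± 4.81 FPKM (SD, n = 3 each), or 43.6% of WT. Within Mtor CKO the highest library was 4.60 times the lowest. Psmg3 fell by limma, with a log2 difference of -1.31 (SE 0.51, 95% interval -2.46 to -0.16, adjusted p = 0.0441), but the call was lost when any 1 of the 6 libraries was left out. Its log2 difference was -0.84 without Mtor CKO replicate 1 and -1.81 without Mtor CKO replicate 3 (limma adjusted p = 0.132 and 0.0902), and it ran from -1.49 to -1.18 without Mtor CKO replicate 2 or any 1 of the 3 WT libraries (limma adjusted p from 0.0668 to 0.106).

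**Figure D1:**
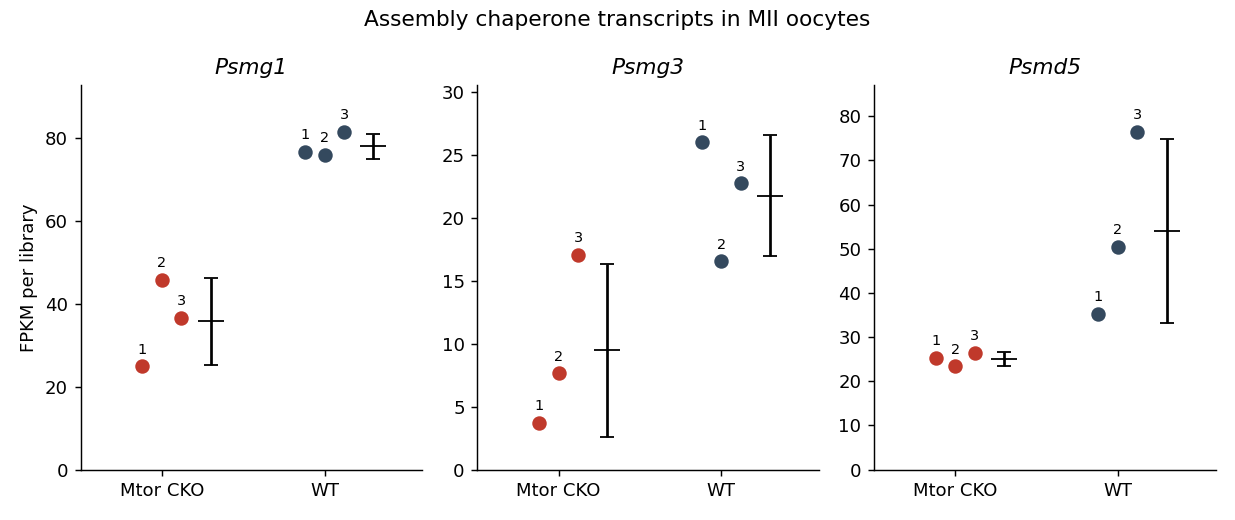
FPKM of Psmg1, Psmg3 and Psmd5 (y axis, from 0) in each Mtor CKO and WT library; numbers are replicate numbers, and the bar beside each group is the mean with its SD (n = 3). Psmg1 and Psmd5 show no overlap between the genotypes, while Psmg3 in Mtor CKO library 3 (17.1 FPKM) lies above WT library 2 (16.5 FPKM).

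By limma, 3 of the 3 chaperones fell, in a table where 60.3% of the 471 tested genes were called lower in Mtor CKO. Without Mtor CKO replicate 1, Mtor CKO replicate 3, WT replicate 2 or WT replicate 3 the number was 0 of 3, and 3 or 4 genes of the whole table passed. The genotypes did not overlap in 2 of the 3, against 57.4% of all 516 genes with every Mtor CKO library below every WT library. The q-values of the authors' deposited table were 0.0209 for Psmg1, 0.0550 for Psmg3 and 0.10 for Psmd5, so 1 of the 3 was at or under 0.05 and lower in Mtor CKO, against 39.9% of the 516 genes. None of these counts sets the chaperones apart from the table they were picked with. The two-sided exact permutation test over the 6 libraries gave p = 0.1 for Psmg1, 0.1 for Psmd5 and 0.2 for Psmg3, where 0.1 is the smallest p that 3 against 3 libraries can give.

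The group values in the authors' deposited table are not the library means. For Psmg3 they were 5.93 FPKM for Mtor CKO against 16.0 FPKM for WT, both below the library means, with a log2 fold of -1.43. For Psmg1 they were 30.1 FPKM for Mtor CKO against 66.0 FPKM for WT (log2 fold -1.13), and for Psmd5 25.0 FPKM for Mtor CKO against 54.3 FPKM for WT (log2 fold -1.12), the last close to the library means.

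The sizes of the 3 falls were ordinary for this table. Their median log2 difference was -1.14, and the median over all 471 tested genes was -1.03. Counted from the largest fall, Psmg3 was number 106 of 471, Psmg1 number 167 and Psmd5 number 248. Relative to the median of the tested genes, the log2 difference was -0.12 for Psmg1, -0.29 for Psmg3 and 0.01 for Psmd5. When each library was instead centred on its own median over the tested genes, the log2 differences were -0.39 for Psmg1, -0.56 for Psmg3 and -0.26 for Psmd5, the median of the tested genes was -0.28, and 0 of the 3 passed (limma adjusted p = 0.413, 0.485 and 0.599). That centring turned the table's calls from 284 lower and 63 higher into 3 lower and 86 higher; it subtracts by construction the fall that most of the picked genes share.

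**Figure D2:**
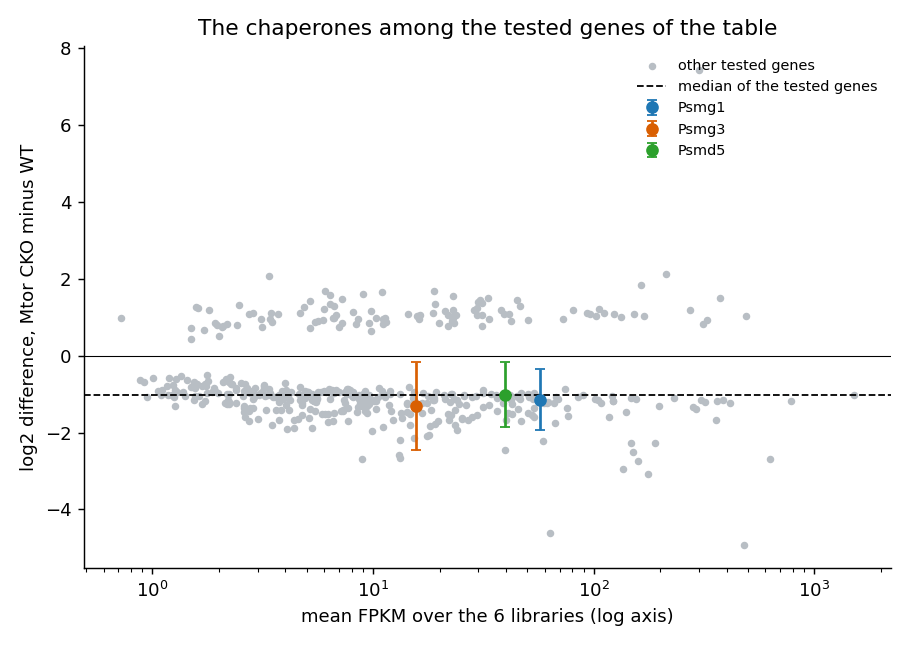
Log2 difference (Mtor CKO minus WT, y axis) against mean FPKM over the 6 libraries (x axis, log scale) for the 471 tested genes, with the 3 chaperones in colour and their 95% limma intervals; the dashed line is the median of the tested genes, -1.03. The gap around 0 reflects how the table was picked, and the chaperones sit within the main band of lower genes.

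In levels per transcript length, Psmg1 was the most abundant of the 3 and Psmg3 the least. By WT mean they ranked 57, 87 and 152 among the 516 genes for Psmg1, Psmd5 and Psmg3. Psmg3 was below both others in every library, and its range did not overlap theirs within either genotype. The ranges of Psmg1 and Psmd5 overlapped both in Mtor CKO (24.9 to 45.8 FPKM and 23.4 to 26.4 FPKM) and in WT (76.0 to 81.5 FPKM and 35.2 to 76.5 FPKM). The summed level of the 3 chaperones was 53.9, 76.9 and 80.1 FPKM in Mtor CKO libraries 1 to 3, against 138, 143 and 181 FPKM in WT libraries 1 to 3, with means of 70.3 ± 14.3 FPKM and 154 ± 23.4 FPKM (SD, n = 3 each). No Mtor CKO library reached a WT library on this sum. All 3 rows were picked for a difference between these same libraries and were lower in Mtor CKO. A gap in their sum is therefore in part built into the picking.

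The chaperones work together on 1 complex, so their proportions within each library were compared as well. A ratio of 2 genes in 1 library does not depend on how the library was scaled. The ratio of Psmg1 to Psmg3 was 6.71, 6.00 and 2.14 in Mtor CKO libraries 1 to 3, against 2.95, 4.60 and 3.58 in WT libraries 1 to 3. The ratio of Psmg1 to Psmd5 was 0.986, 1.96 and 1.39 in Mtor CKO and 2.18, 1.51 and 1.07 in WT. The ratio of Psmg3 to Psmd5 was 0.147, 0.327 and 0.647 in Mtor CKO and 0.739, 0.328 and 0.297 in WT. In each of these 3 ratios the genotypes overlapped. The log2 ratio differed by 0.28 (Psmg1 to Psmg3), -0.13 (Psmg1 to Psmd5) and -0.40 (Psmg3 to Psmd5), Mtor CKO minus WT, with two-sided exact permutation p = 0.7, 0.7 and 0.5, each 0.7 when adjusted over the 3 pairs. The smallest p this test can give is 0.1, so it could not have passed 0.05 and does not show that the proportions were alike. The spread of the log2 ratios in Mtor CKO, an SD of 0.91 for Psmg1 to Psmg3 and 1.07 for Psmg3 to Psmd5, was wider than these differences.

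**Figure D3:**
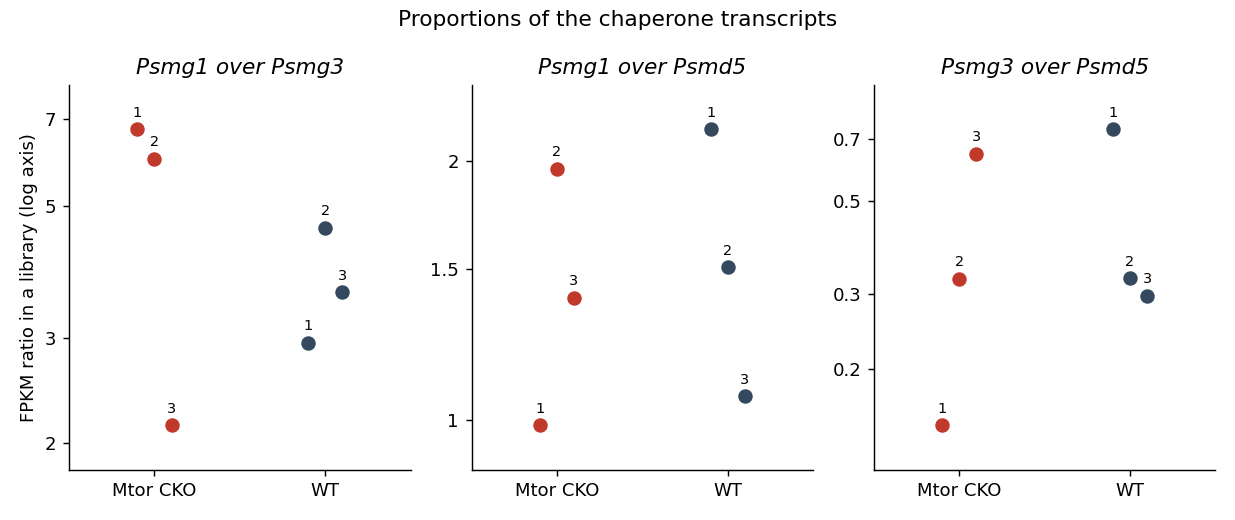
Ratio of FPKM between 2 chaperones within each library (y axis, log scale) in Mtor CKO and WT; numbers are replicate numbers. The genotypes overlap in all 3 panels, and Mtor CKO libraries 1 and 3 lie far apart wherever Psmg3 is part of the ratio.

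The 3 genes varied differently among libraries of 1 genotype. On the log2(FPKM + 1) scale, Mtor CKO library 1 was below its group mean by 0.46 for Psmg1 and by 0.94 for Psmg3, while Psmd5 was 0.02 above it. The median deviation of all tested genes in that library was -0.17. In Mtor CKO library 3, Psmg3 was 1.0 above its group mean, while Psmg1 and Psmd5 were 0.07 and 0.08 above theirs and the median deviation of all tested genes was -0.01. In WT library 3, Psmd5 was 0.56 above its group mean and Psmg1 and Psmg3 were 0.06 and 0.08 above theirs. The outlying values of Psmg3 and Psmd5 thus fell in different libraries.

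To see which genes of the table followed the same pattern over the 6 libraries, each gene was centred on its own mean log2(FPKM + 1). The root mean square difference from each chaperone was then taken over 408 tested genes. Left out were the chaperones, names made of Gm, LOC, ENSMUS, BC, AI or AU and digits, and names ending in Rik. Some other clone names stayed in. Closest to Psmg1 were Sf3b4, a subunit of the splicing factor SF3B (0.077), the alpha tubulin Tuba3a (0.113) and the bicarbonate transporter Slc4a10 (0.124), where the median gene was at 0.417. Sf3b4 was at 6.82, 12.1 and 9.0 FPKM in Mtor CKO libraries 1 to 3 and at 22.0, 21.6 and 20.7 FPKM in WT libraries 1 to 3, with the same even WT level and the same low Mtor CKO library 1 as Psmg1. Closest to Psmd5 were the histone demethylase Kdm4a (0.107), Tes, a LIM-domain protein of cell contacts (0.125), and Lrrc40 (0.148), with the median gene at 0.552. Kdm4a was low, at 0.689 to 1.04 FPKM in the Mtor CKO libraries and 1.77 to 4.01 FPKM in the WT libraries, and the pseudocount of 1 compresses the differences of genes this low, so its closeness is one on the log2(FPKM + 1) scale. Lrrc40 was at 50.6, 54.9 and 67.2 FPKM across Mtor CKO libraries 1 to 3, against 82.0, 130 and 151 FPKM in the WT libraries. Closest to Psmg3, and less close, were the peroxiredoxin Prdx6 (0.258), the row named Mir1897,Sox2ot (0.292) and the centrosomal gene Cep128 (0.380), with the median gene at 0.754. Prdx6, at 0.226 to 2.88 FPKM in Mtor CKO libraries against 4.34 to 7.99 FPKM in WT libraries, is compressed in the same way. The same holds for Slc4a10 and Tes, at 1.40 to 2.50 and 1.17 to 1.37 FPKM in the Mtor CKO libraries. It also holds for Mir1897,Sox2ot and Cep128, at 0.117 to 2.36 and 0.177 to 3.15 FPKM in the Mtor CKO libraries. Between the chaperones the distance was 0.408 for Psmg1 and Psmd5, 0.503 for Psmg1 and Psmg3 and 0.693 for Psmg3 and Psmd5. Seen from Psmg3, 21 of the 408 genes were closer than Psmg1 and 147 were closer than Psmd5. Seen from Psmd5, 104 were closer than Psmg1 and 260 closer than Psmg3, and seen from Psmg1, 199 were closer than Psmd5 and 249 closer than Psmg3. These distances are descriptions over 6 libraries, within a table picked for genotype differences.

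**Figure D4:**
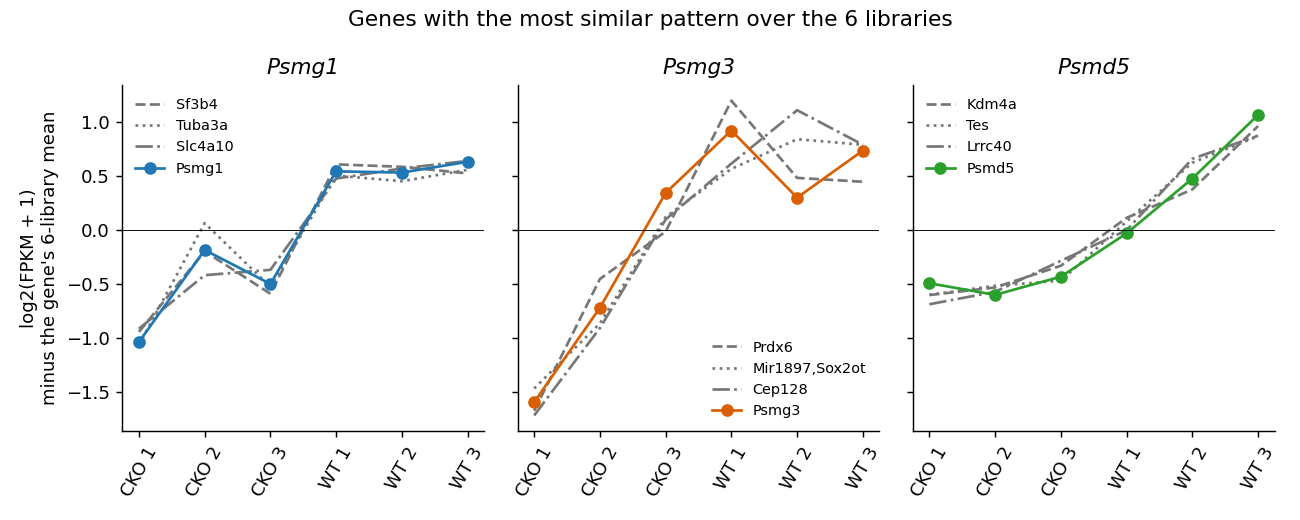
Log2(FPKM + 1) minus the gene's mean over the 6 libraries (y axis) for each chaperone (coloured) and the 3 genes with the smallest root mean square difference from it (grey), in Mtor CKO libraries 1 to 3 and WT libraries 1 to 3; lines join the values of 1 gene and imply no order. On this scale, which compresses low genes, the genes nearest Psmg1 and Psmd5 follow them closely (0.077 to 0.148), and those nearest Psmg3 less so (0.258 to 0.380).

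The rest of the proteasome pathway was nearly absent from the table. Of 39 symbols for proteasome subunits (core, immunoproteasome and regulatory particle), 0 were listed, and so were 0 of 6 other assembly chaperones, among them the partners Psmg2 and Psmg4 and the maturation factor Pomp. Of 20 activators, inhibitors and associated factors, 8 transcription factors and their processing enzymes (Nfe2l1 among them) and 6 ubiquitin and ubiquitin-activating genes, 0 were listed. Of 30 genes of the anaphase-promoting complex, the ubiquitin ligase that drives the egg out of MII, and its regulators and targets, 1 was listed: the kinase Plk1, at 13.9, 45.4 and 19.5 FPKM in Mtor CKO libraries 1 to 3 and at 46.1, 84.6 and 62.1 FPKM in WT libraries 1 to 3. Plk1 had its highest Mtor CKO value in library 2, as Psmg1 did. The median deviation of all tested genes from their group mean was also highest in that Mtor CKO library, at 0.18 on the log2(FPKM + 1) scale. Psmg1 was 0.39 above its group mean there, and a link between Plk1 and Psmg1 was not tested. Of 18 genes for MTOR complexes and their regulators 1 was listed, Depdc5, at or under 0.210 FPKM in each Mtor CKO library and at 0.746, 3.70 and 0.123 FPKM in WT. The table says nothing of genes it does not list, so whether the other proteasome genes differed was not analysed here. Mtor was not listed either, and the labels have no check from the deleted gene.

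Markers bear on which cells the RNA came from, as far as the table lists them. Of 16 oocyte markers 2 were listed, Zp2 and Nlrp5, and their summed level was 234 to 253 FPKM in Mtor CKO against 450 to 906 FPKM in WT, lower in Mtor CKO as the chaperones were. Of 16 cumulus and granulosa markers 2 were listed, Mro and Vcan, summing to 1.68 to 3.15 FPKM in Mtor CKO against 4.50 to 9.86 FPKM in WT, with Vcan listed at 0 in all 3 Mtor CKO libraries. WT library 3 also lists Vcan at 0, and WT libraries 1 and 2 hold 4.33 and 0.245 FPKM of it. Of 8 oviduct markers 1 was listed, Krt7, at 4.23 to 10.1 FPKM in Mtor CKO against 2.45 to 4.40 FPKM in WT, and of 6 blood and immune markers 0 were. The part of other cells in the chaperone differences was not tested. The listed markers had passed the same picking for a difference as the other rows. The median FPKM over the 516 genes was 3.77 to 5.40 in the Mtor CKO libraries and 7.37 to 9.18 in the WT libraries. Of these picked genes 394 were lower in Mtor CKO by the authors' deposited table, so a lower median is built into the picking.

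**Figure D5:**
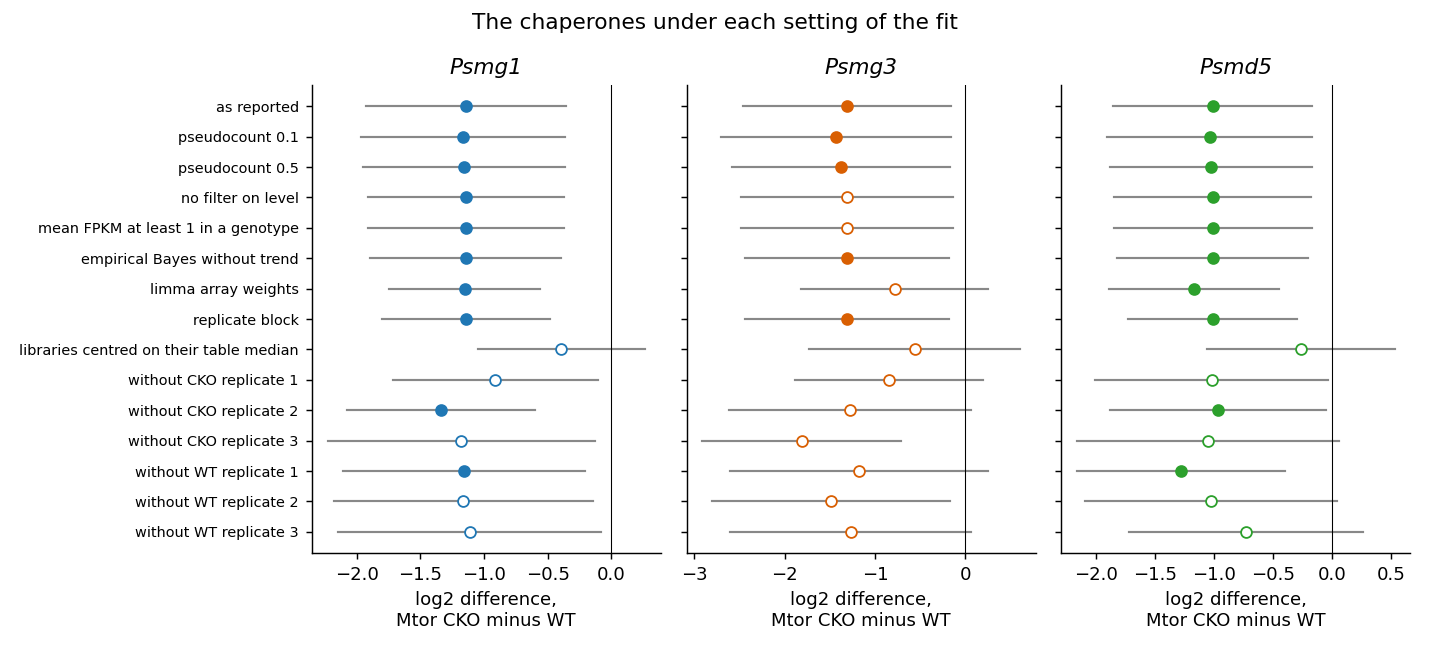
Log2 difference (Mtor CKO minus WT, x axis) of each chaperone under each setting of the limma fit (rows), with 95% intervals; filled points passed an adjusted p of 0.05 and open points did not. All points lie below 0, which is in part built into how the rows were picked. Psmg1 and Psmd5 passed in 9 of 14 alternatives each and Psmg3 in 4 of 14.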

How the data were processed

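RNA from 5 pooled MII oocytes per library was, per the labels' protocols, reverse transcribed (SMARTer, ultra low input) and put through 17 PCR cycles, so fragments are not independent molecules. Reads were handled with TopHat2 (2.0.8b), with Cufflinks (2.1.1) and with Cuffdiff on mm10, per the submitters' processing notes. The authors' deposited table gives FPKM per library and per group, a log2 fold change, and a p-value and q-value. Its log2 fold is headed WT against CKO, but in 513 of the 513 genes with both group values above 0 it equalled log2 of CKO over WT within 0.001.

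Limma 3.58.1 (R 4.3.3, empirical Bayes with trend) was fitted to log2(FPKM + 1) for genes with an FPKM of 1 or more in 3 or more libraries, which kept 471 of 516. Benjamini-Hochberg adjustment ran over these genes at 0.05. "Fell" means past that threshold. Because the genes were picked for a difference between the same libraries, the adjustment does not control the share of false calls. The fit was tested on simulated data without such picking. The pseudocount of 1 understates changes of low genes. Ratios were tested by exact permutation with SciPy 1.17.1. Alternatives covered pseudocounts, filters, trend, array weights, centring, a replicate block and leaving out each library. Promoters are from RefSeq; 3 of 3 members matched by symbol. Named genes were the 3 members, listed members of the fixed pathway and marker lists, overlapping genes, and the 3 closest patterns per member. Members and lists were chosen with earlier results of these data known.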

Additional observations from a re-analysis of the deposited data

How the results depend on the processing

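The log2 difference of all 3 chaperones kept its negative sign in all 14 alternatives of the fit. No row of the table has an absolute log2 fold below 1.0006 between these libraries, so a kept sign is in part built into the picking. Pseudocounts of 0.1 and 0.5 and the fit without trend left 3 of 3 past the threshold. Psmg3 (log2 difference -1.31) lost its call with no filter, and with a filter on a genotype mean of 1 FPKM or more (limma adjusted p = 0.0507 and 0.0502), and with array weights, whose estimate stopped short of convergence, it was at -0.78 (adjusted p = 0.128). With libraries centred on their table median, Psmg1, Psmg3 and Psmd5 were at -0.39, -0.56 and -0.26 and 0 of 3 passed; that shift follows from the centring itself. Leaving out 1 library at a time gave -1.34 to -0.91 for Psmg1, -1.81 to -0.84 for Psmg3 and -1.28 to -0.73 for Psmd5. Of the 3 chaperones, 0 passed without CKO replicate 1, CKO replicate 3, WT replicate 2 or WT replicate 3, and 2 passed without CKO replicate 2 or WT replicate 1. The table as a whole lost its calls in those same 4 fits, from 347 genes to 4, 3, 3 and 4. The cause was not tested.

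The log2 ratios ran from -0.025 to 0.80 for Psmg1 to Psmg3, from -0.38 to 0.13 for Psmg1 to Psmd5 and from -0.92 to 0.15 for Psmg3 to Psmd5 with 1 library left out, so none has a settled sign. With the replicate block, the 3 chaperones passed with unchanged log2 differences of -1.14, -1.31 and -1.01 (limma adjusted p = 0.0193, 0.0389 and 0.0260), and 405 genes passed in place of 347. Libraries of the same number deviated together across genes only weakly (r = 0.115, 0.240 and 0.0843). Mtor CKO library 1 correlated slightly more with WT library 3 (r = 0.118) than with WT library 1. The other pairs of different number had r from -0.218 to -0.00681. The labels name no shared litter or day, so the numbers are not taken as pairs. Whether libraries of the same number share a batch was not tested. Depth is unknown, so no counting error limits can be set.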

Other observations

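The gene ontology terms in the deposited table add few other proteasome rows. They were looked up after the chaperones' values had been seen. Proteasome assembly is given to 2 rows, Psmg1 and the Elongator subunit Elp2, both lower in Mtor CKO by the authors' deposited table. Psmd5 carries the base of the regulatory particle as its cellular component, although it leaves the finished proteasome, and 0 rows carry the core complex. Proteasome-mediated degradation of ubiquitin-tagged proteins is given to 4 rows: Ercc8, Rnf4 and Spop, adaptors or ligases for ubiquitin, were lower and the ubiquitin-conjugating enzyme Ube2w was higher in Mtor CKO by the authors' deposited table, where 76.4% of all rows were lower.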
